A study of Rattus norvegicus with 23 samples.

Results

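Immediate early genes are transcribed within minutes of neuronal firing, without new protein synthesis. The 9 described here, Fos, Jun, Junb, Arc, Egr1, Egr3, Nr4a1, Nr4a3 and Homer1, were taken as every probe set of the array whose annotated gene symbol was one of these names. All 9 of these genes, of 14217 that the array's annotation names, were found. That gave 18 probe sets of 31042, of which 13, from 8 genes, reached 4 on the log2 scale in 6 or more animals and were tested. Another probe set that carried Homer1 together with a second symbol was not counted.

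The tissue was the microdissected CA3 field of the hippocampus of male Long-Evans rats, 1 array per animal. Young rats were 6 months old (n = 9). Aged rats were 24 to 26 months old and were split by a learning index from the Morris water maze into those within the range of the young, called aged unimpaired (n = 6), and those worse than the young, called aged impaired (n = 8). No rat received a treatment, and every animal was killed 2 weeks after behavioural testing ended.

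Calcium entry through NMDA receptors and voltage-gated channels activates kinases that phosphorylate CREB and the partners of SRF, and these factors switch the genes on from sites already present in their promoters. Fos, Jun and Junb encode subunits of the AP-1 transcription factor, Egr1 and Egr3 are zinc finger factors, and Nr4a1 and Nr4a3 are orphan nuclear receptors. Arc and Homer1 act at the synapse: Arc takes part in the endocytosis of AMPA receptors, and Homer1 encodes both long scaffold proteins that link metabotropic glutamate receptors to internal calcium stores and a short inducible form that competes with them. Which Homer1 form each probe set detects was not settled by the sources used here, so its probe sets are given by identifier.

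RefSeq promoter windows of assembly GRCr8, 250 bases before to 50 after the start, were matched for 4 of the 9 genes. The 250 upstream bases of Nr4a1 and Junb are shown. Both hold the short form of the CREB element, TGACG, in capitals on either strand (CGTCA is the same site on the other strand). The pair was picked because its levels moved together across animals, with a Pearson's r of 0.62 that passed adjustment. Spearman's rho was 0.62 too and did not pass (adjusted p = 0.0509, permutation test within groups). A link of the site to this co-variation was not tested. Nr4a1 lies at chr7:134259888-134260137 and Junb at chr19:40080876-40081125, both on the plus strand.
Nr4a1: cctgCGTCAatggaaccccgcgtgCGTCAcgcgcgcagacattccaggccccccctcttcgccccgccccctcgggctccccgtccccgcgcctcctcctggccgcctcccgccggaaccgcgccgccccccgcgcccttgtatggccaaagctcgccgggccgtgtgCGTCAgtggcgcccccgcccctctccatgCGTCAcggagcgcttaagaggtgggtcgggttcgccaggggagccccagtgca
Junb: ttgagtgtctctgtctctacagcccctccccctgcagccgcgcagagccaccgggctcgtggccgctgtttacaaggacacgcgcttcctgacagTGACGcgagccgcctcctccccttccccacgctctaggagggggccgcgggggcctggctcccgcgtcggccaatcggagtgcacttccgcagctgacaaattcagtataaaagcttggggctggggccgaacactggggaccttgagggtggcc
Nr4a1 held 4 such short CREB sites and Junb 1. Egr1 held 2 of them and 2 CArG boxes, the core of the serum response element to which SRF binds, and Homer1 held neither. The short CREB site was present in 21.2% of all 33469 promoter windows of this length and CArG boxes in 1.64%. The full CREB element TGACGTCA (1.83% of windows), the AP-1 site TGACTCA (4.63%) and the NR4A element AAAGGTCA (1.43%) were in none of the 4 windows, and the EGR site GCGNGGGCG (4.98%) was in that of Nr4a1. The TATA box letters TATAAA (14.2%) stood 49 bases before the start in Junb and on the minus strand in Homer1. The motifs were searched on both strands, and a short site inside a full element would count as both.

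The 23 arrays had medians between 3.39 and 3.46 on the log2 scale, and each correlated with the rest at a mean r from 0.9959 to 0.9974. Of 10 CA3 markers, 9 were on the array and 7 were tested. Their mean level lay between 10.50 and 10.78 in young, 10.37 and 10.57 in aged unimpaired and 10.14 and 10.63 in aged impaired animals, and 4 of the 7 fell in aged impaired against young. All 5 tested microglial markers rose in both aged groups, with a mean level between 7.01 and 7.43 in young animals and between 7.66 and 8.25 in aged ones. Dentate gyrus markers (3 tested of 8) ranged from 6.21 to 7.52 and CA1 markers (5 of 8) from 5.29 to 7.97, with no call in any comparison. Among 3 tested CA2 markers, Pcp4 (-0.30) and Rgs14 (-0.24) fell in aged impaired against young, and Amigo2 was 0.61 higher in aged unimpaired than in young animals and differed by -0.60 between aged impaired and aged unimpaired animals (limma adjusted p from 0.0196 to 0.0489). The call between the aged groups was lost with only those groups in the fit. Of 6 astrocyte markers, Gfap rose in aged impaired (0.62) and aged unimpaired animals (0.53) against young. The other marker lists, of interneurons, oligodendrocytes, vessels, meninges, choroid plexus and blood, had no call in a comparison of 2 groups.

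Nr4a3 was the member called lower in aged impaired than in young animals. On probe set 1393389_at, young values were 9.50 at the lowest, 9.74 at the median and 10.04 at the highest, aged unimpaired values were 9.44, 9.58 and 9.65, and aged impaired values were 9.02, 9.31 and 9.56. The aged impaired group was the lowest, with 6 of 8 animals below every young rat, and the aged unimpaired group lay between them. Aged impaired animals were 1.40-fold lower than young (log2 difference -0.49 ± 0.08 SE, limma adjusted p = 0.000914).

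The second tested Nr4a3 probe set, 1369067_at, moved the same way by less. Young values ran from 9.29 through a median of 9.49 to 9.70, aged unimpaired values from 9.18 through 9.26 to 9.53 and aged impaired values from 9.00 through 9.22 to 9.39. In the aged impaired group 7 of 8 animals lay below every young animal (1.23-fold lower, -0.30 ± 0.07 SE, limma adjusted p = 0.00824). Both calls were kept in each of the 33 alternative fits, where the adjusted p ran up to 0.00960 for 1393389_at and up to 0.0409 for 1369067_at. The probe sets followed each other across animals (r = 0.64 after group means were removed). In bulk tissue, fewer cells of a type and less RNA per cell cannot be told apart, and the part of the lower CA3 and CA2 markers and the higher microglial markers and Gfap in this fall was not tested. The third Nr4a3 probe set, 1369217_at, never reached 4 on any array and was not tested.

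These were the 2 of 13 member probe sets called in aged impaired against young, both lower. Over all tested probe sets 9.76% were called in this comparison and 5.88% were called lower, and nothing particular to the members is read from 2 calls that come from 1 gene. The median log2 difference of the 13 was -0.08 against -0.02 for all tested probe sets, and 4 had an unadjusted p under 0.05, as did 26.3% of all tested probe sets. The remaining pair of those 4 were Jun 1369788_s_at and Homer1 1370454_at, described below. Of the calls over all probe sets, 39.7% were higher, 50% with arrays centred on the median of tested probe sets (2 members called) and 20.7% when each array was centred on its median; that last setting called 4 members, all lower, against 16.1% of all tested probe sets.

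Homer1 1370454_at had the widest spread of the tested Homer1 probe sets. Young animals ran from 6.79 through a median of 7.39 to 8.36, with 3 of the 9 above 8. Aged unimpaired animals ran from 7.14 through 7.36 to 7.50 and aged impaired animals from 6.47 through 7.08 to 7.32. The young range covered the aged unimpaired range and most of the aged impaired range, with 2 of 8 aged impaired animals below every young one. The log2 difference of aged impaired against young was -0.51 ± 0.18 SE and was not called (limma adjusted p = 0.0728); it was called without young replicate 5, the lowest young animal (adjusted p = 0.0278), and after centring arrays on their medians (0.0412).

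The other tested Homer1 probe sets differed by less. Probe set 1368318_at lay between 8.83 and 9.05 in young, 8.73 and 9.01 in aged unimpaired and 8.64 and 9.11 in aged impaired animals. Probe set 1370656_a_at lay between 7.13 and 7.35, 7.01 and 7.35, and 6.99 and 7.51 in the same order. The groups overlapped on both, and no comparison was called. They followed each other across animals (r = 0.68), while 1370454_at had r of -0.19 and -0.31 with them. Of the untested ones, 1368319_a_at stayed under 4 on every array, and 1370997_at passed 4 on 5 arrays, with a highest value of 6.12 in a young animal.

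**Figure D1:**
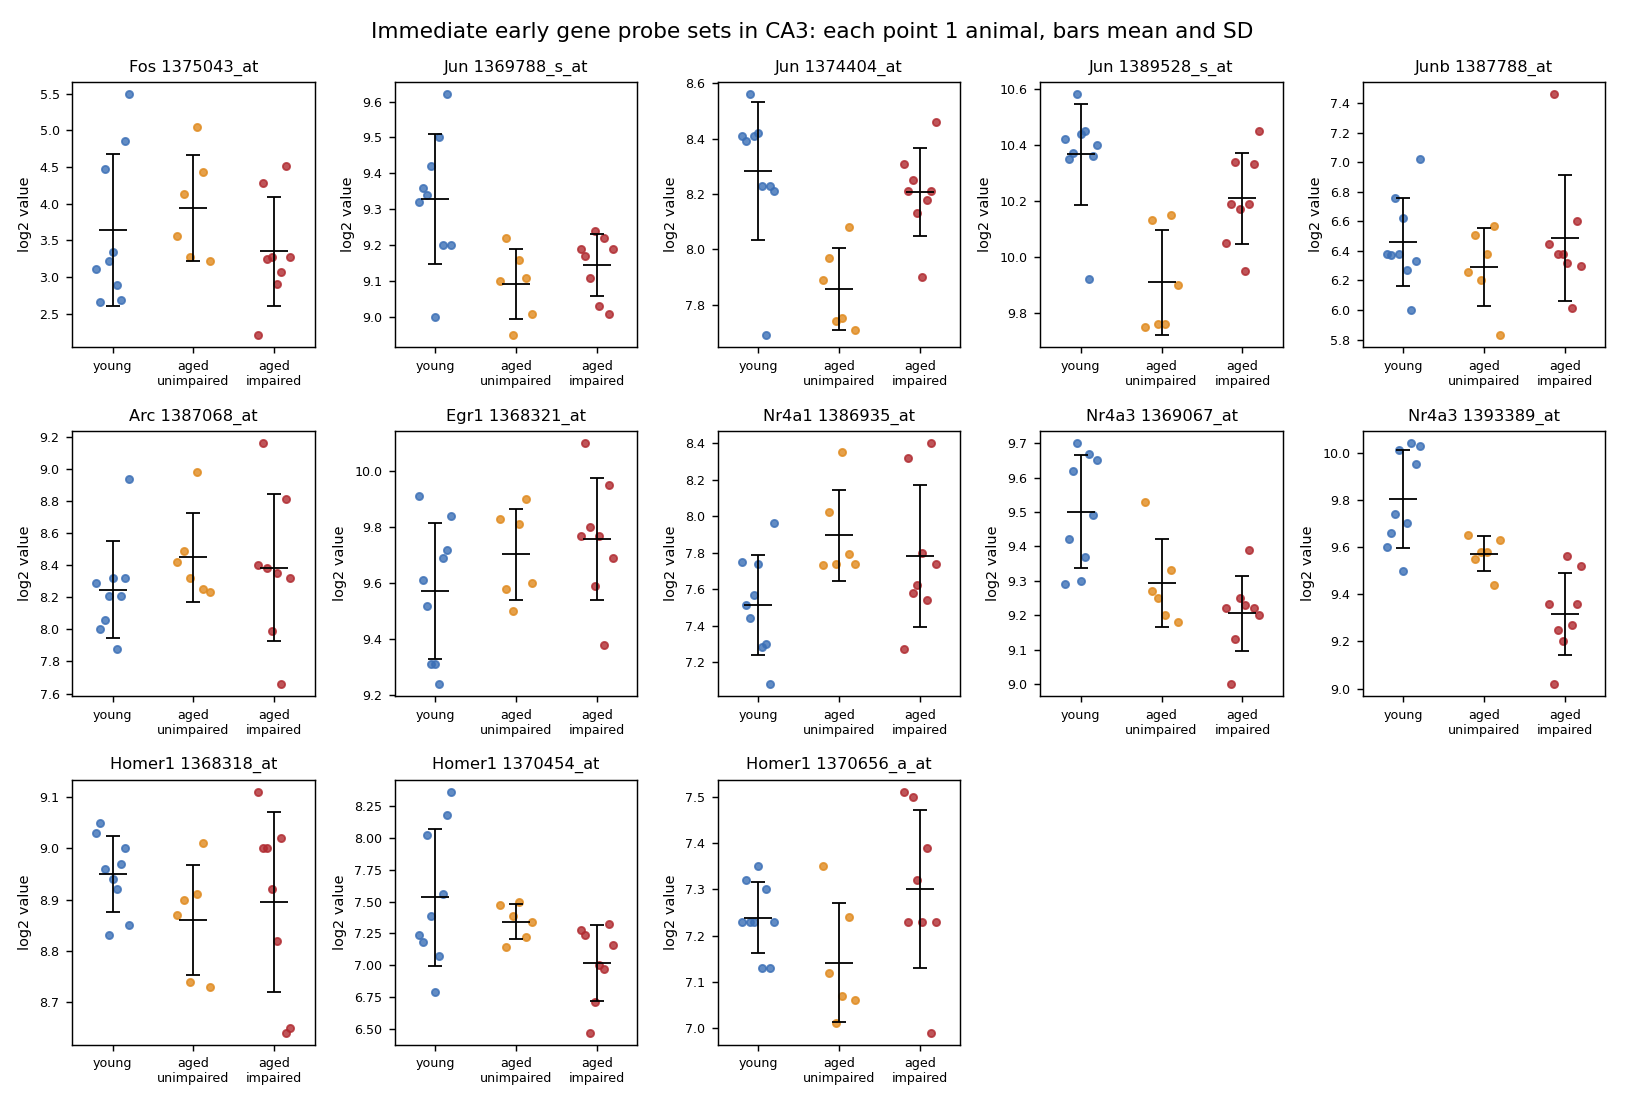
Log2 value of each tested probe set (vertical axis, a separate range per panel) in young, aged unimpaired and aged impaired animals; each point is 1 animal and bars give mean and SD. Nr4a3 1393389_at steps down from a young mean of 9.80 to 9.57 and 9.32, Jun 1389528_s_at is lowest in aged unimpaired animals (9.91), and the Arc, Junb and Fos groups overlap.

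Jun was the member called lower in aged unimpaired than in young animals. On probe set 1389528_s_at, young values were 9.92, 10.40 and 10.58 (lowest, median, highest), aged unimpaired values 9.75, 9.83 and 10.15, and aged impaired values 9.95, 10.19 and 10.45. Aged unimpaired animals were lowest, with 4 of 6 below every young animal, and aged impaired animals overlapped both groups. Aged unimpaired animals were 1.37-fold lower than young (-0.46 ± 0.09 SE, limma adjusted p = 0.00873). With the replicate number as a block this was not called (limma adjusted p = 0.0775), though those numbers did not pair the animals. The microglial markers, Gfap and Amigo2 were higher in the same animals, and their part in this fall was not tested.

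Jun 1374404_at gave young values from 7.69 through a median of 8.39 to 8.56, aged unimpaired values from 7.71 through 7.82 to 8.08 and aged impaired values from 7.90 through 8.21 to 8.46. None of the 6 aged unimpaired animals lay below every young animal, because young replicate 7 was at 7.69; the other 8 young animals lay at 8.21 or above, over the whole aged unimpaired range. The difference was -0.42 ± 0.10 SE (1.34-fold lower, limma adjusted p = 0.0287). This call ended without any 1 of aged unimpaired replicates 4, 6 and 8 or young replicates 2, 3 and 4 (adjusted p from 0.0510 to 0.0740), with no filter (0.0823) and with only the 2 groups compared in the fit (0.0589). It also ended with the replicate number as a block (limma adjusted p = 0.123).

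On Jun 1369788_s_at, young values ran from 9.00 through 9.34 to 9.62, aged unimpaired values from 8.95 through 9.10 to 9.22 and aged impaired values from 9.01 through 9.18 to 9.24. Both aged groups lay in the lower part of the young range. The differences against young were -0.24 ± 0.07 SE in aged unimpaired (limma adjusted p = 0.0800) and -0.18 ± 0.06 SE in aged impaired animals (limma adjusted p = 0.0719), neither of them called. Without young replicate 5, which had the lowest young value, both were called (adjusted p = 0.0202 and 0.0153). This probe set followed the other Jun probe sets weakly across animals (r = 0.21 and 0.23), while those had r of 0.77 with each other.

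In aged unimpaired against young, 2 of 13 member probe sets were called, both of Jun and both lower, against 2.06% of all tested probe sets called and 0.696% called lower. The 2 probe sets come from 1 gene and are not independent. Both tested Nr4a3 probe sets were lower too, without a call. Their aged unimpaired means were 9.57 against 9.80 in young (1393389_at) and 9.30 against 9.50 (1369067_at). The median difference of the 13 was -0.17 against 0.00 for all tested, and 6 had an unadjusted p under 0.05, as did 16.8% of all tested probe sets. The higher share among calls over all probe sets moved from 66.2% to 55.8% under array weights, which called 3 members, all lower.

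Nr4a1 stood higher in both aged groups without a call. Young values ran from 7.08 through 7.51 to 7.96, aged unimpaired values from 7.73 through 7.76 to 8.35 and aged impaired values from 7.27 through 7.68 to 8.40. All aged unimpaired animals lay in the upper part of the young range or above it. The differences were 0.38 ± 0.16 SE (limma adjusted p = 0.216) and 0.27 ± 0.15 SE (limma adjusted p = 0.244).

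Egr1 lay between 9.24 and 9.91 in young, 9.50 and 9.90 in aged unimpaired and 9.38 and 10.10 in aged impaired animals, with medians of 9.61, 9.70 and 9.77. The aged impaired difference against young was 0.19 ± 0.10 SE (limma adjusted p = 0.248). Arc lay between 7.88 and 8.94, 8.23 and 8.98, and 7.66 and 9.16 in the same order, with medians of 8.21, 8.37 and 8.36. The aged impaired group spanned the widest range, and its 95% interval for the difference against young ran from -0.21 to 0.48. Junb lay between 6.00 and 7.02, 5.83 and 6.57, and 6.01 and 7.46, with an interval from -0.30 to 0.36 for the same comparison. These intervals are on the log2 scale and none of Egr1, Arc and Junb was called in any comparison.

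Fos was near the lower end of the scale in most animals. Probe set 1375043_at reached 4 in 3 of 9 young, 3 of 6 aged unimpaired and 2 of 8 aged impaired animals, with values from 2.66 through 3.22 to 5.49, from 3.22 through 3.85 to 5.04 and from 2.21 through 3.27 to 4.52. The groups overlapped throughout, no comparison was called, and no fold is given since each group mean lay below 4. The second Fos probe set, 1371283_at, read 2.19 on every array, and Egr3 read between 2.19 and 2.20 on every array, so neither gives a comparison.

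**Figure D2:**
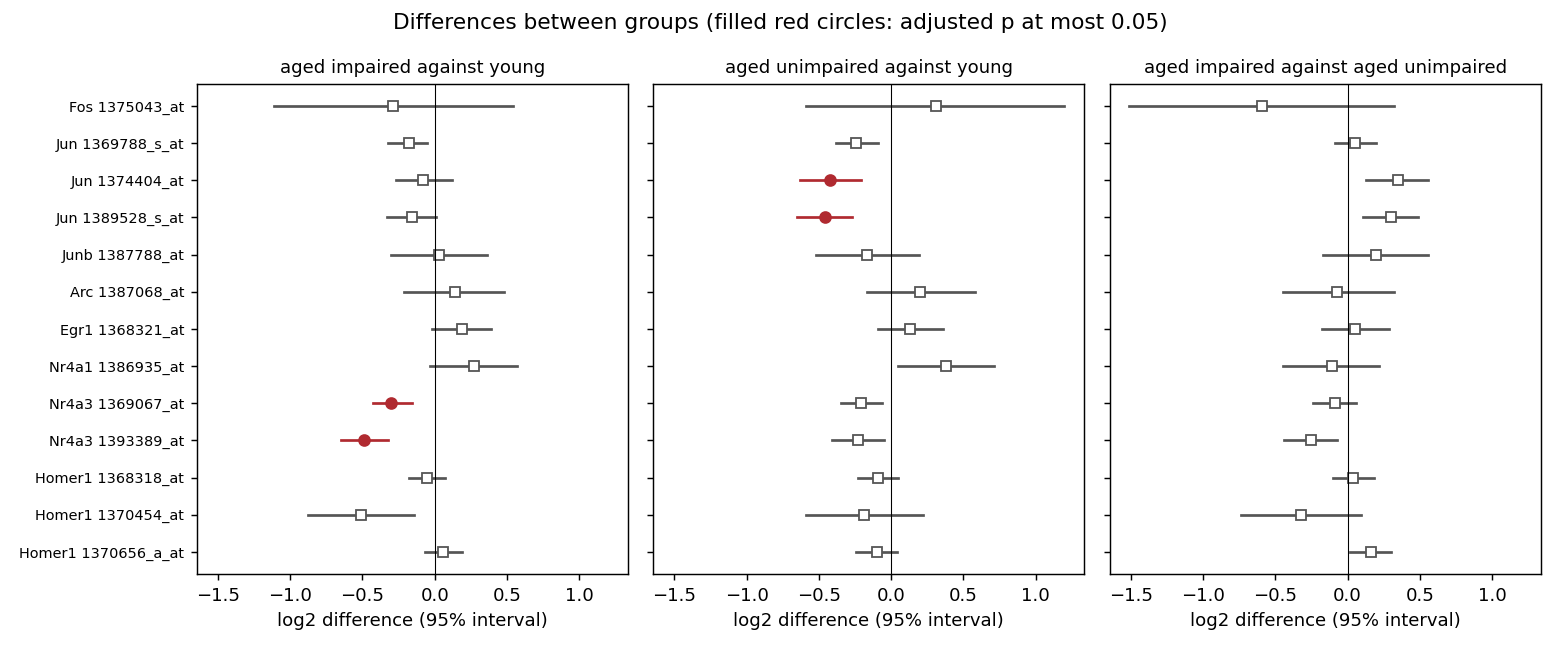
Log2 difference (horizontal axis) of 13 tested probe sets in 3 comparisons, with the 95% interval of the fit; filled red circles have an adjusted p of at most 0.05 and open squares do not. Nr4a3 is called against young in aged impaired animals (-0.49 and -0.30), 2 Jun probe sets in aged unimpaired animals (-0.46 and -0.42), and none between the aged groups.

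Between aged impaired and aged unimpaired animals no member was called by limma (0 of 13, with 4 at an unadjusted p under 0.05), against 0.778% of all tested probe sets called and 15.2% at that unadjusted p. Jun 1374404_at was 0.35 ± 0.10 SE higher in aged impaired animals (limma adjusted p = 0.0994), with 7 of 8 above every aged unimpaired animal, and Jun 1389528_s_at 0.30 ± 0.09 SE higher (limma adjusted p = 0.114), with 6 of 8. Nr4a3 1393389_at differed by -0.25 ± 0.09 SE (limma adjusted p = 0.161), with 6 of 8 below. Without aged unimpaired replicate 7 both Jun probe sets were called (adjusted p = 0.0484 and 0.0473), and without young replicate 7 the first was (0.0314). So the Nr4a3 call in one aged group and the Jun calls in the other were not shown to differ between them. Over all probe sets 86.8% of calls were higher here, 72.6% after centring arrays on their medians and 69.4% with array weights. With only the aged groups in the fit, no probe set was called here. The same held with the replicate number as a block and with a gap between control rows as covariate. With no filter 2 were called.

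Against young, with both aged groups averaged, 4 of 13 were called, all lower: both Nr4a3 probe sets (-0.36 and -0.25) and Jun 1389528_s_at (-0.31) and 1369788_s_at (-0.21). Over all tested probe sets 6.90% were called and 3.56% called lower. The comparison shares its animals with the ones above. The higher share over all probe sets was 48.4%, and 27.2% after centring arrays on their medians, which called 5 members, all lower.

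Of the members, Arc co-varied with Fos, Junb, Egr1 and Nr4a1 from animal to animal within the groups, and so did Fos, Junb and Nr4a1 with one another. These pairs passed adjustment by Pearson's r but not by rank. The 5 genes were singled out after the r of every pair had been seen. Egr1 passed with Arc alone. After group means were removed, Pearson's r was 0.73 for Arc and Nr4a1, 0.72 for Junb and Arc, 0.69 for Arc and Egr1, 0.65 for Fos and Junb, 0.63 for Fos and Arc, 0.62 for Junb and Nr4a1 and 0.56 for Fos and Nr4a1 (23 animals). These 7 of the 28 pairs among 8 genes, each gene by its brightest tested probe set, passed a permutation test within groups (two-sided, p from 0.00045 to 0.00573, adjusted over the 28 pairs 0.00607 to 0.0229), and 0 negative pairs did. Spearman's rho for the same pairs was 0.56, 0.58, 0.61, 0.52, 0.49, 0.62 and 0.43, and none passed by rank (smallest adjusted permutation p = 0.0509). Among all pairs of 8720 genes, 2.81% had an r of at least 0.56, against 25.0% of the member pairs. That cut is the lowest r of the 7 pairs, so it was set from them. The median r was 0.14 for the member pairs and 0.07 for all pairs.

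The relation rested in part on a few animals with high values. Young replicate 9 was the highest young animal for Fos (5.49), Junb (7.02), Arc (8.94), Nr4a1 (7.96) and Homer1 1370454_at (8.36). Aged impaired replicate 2 was the highest of its group for Junb (7.46), Arc (9.16) and Egr1 (10.10), and aged impaired replicate 7 for Fos (4.52) and Nr4a1 (8.40). Aged unimpaired replicate 6 was the highest of its group for Fos (5.04), Arc (8.98) and Nr4a1 (8.35). When the 2 animals farthest from the median of the first gene were left out, r for the 7 pairs, in the order above, was 0.60, 0.42, 0.56, 0.66, 0.53, 0.41 and 0.74, and only Fos with Junb and Fos with Nr4a1 still passed (adjusted permutation p = 0.0291 and 0.0132). Both of these pairs, and Fos with Arc, rest on Fos 1375043_at, whose mean lay below 4 in each group. The pairs were not recomputed with a floor. Without young replicate 9, 4 pairs passed.

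**Figure D3:**
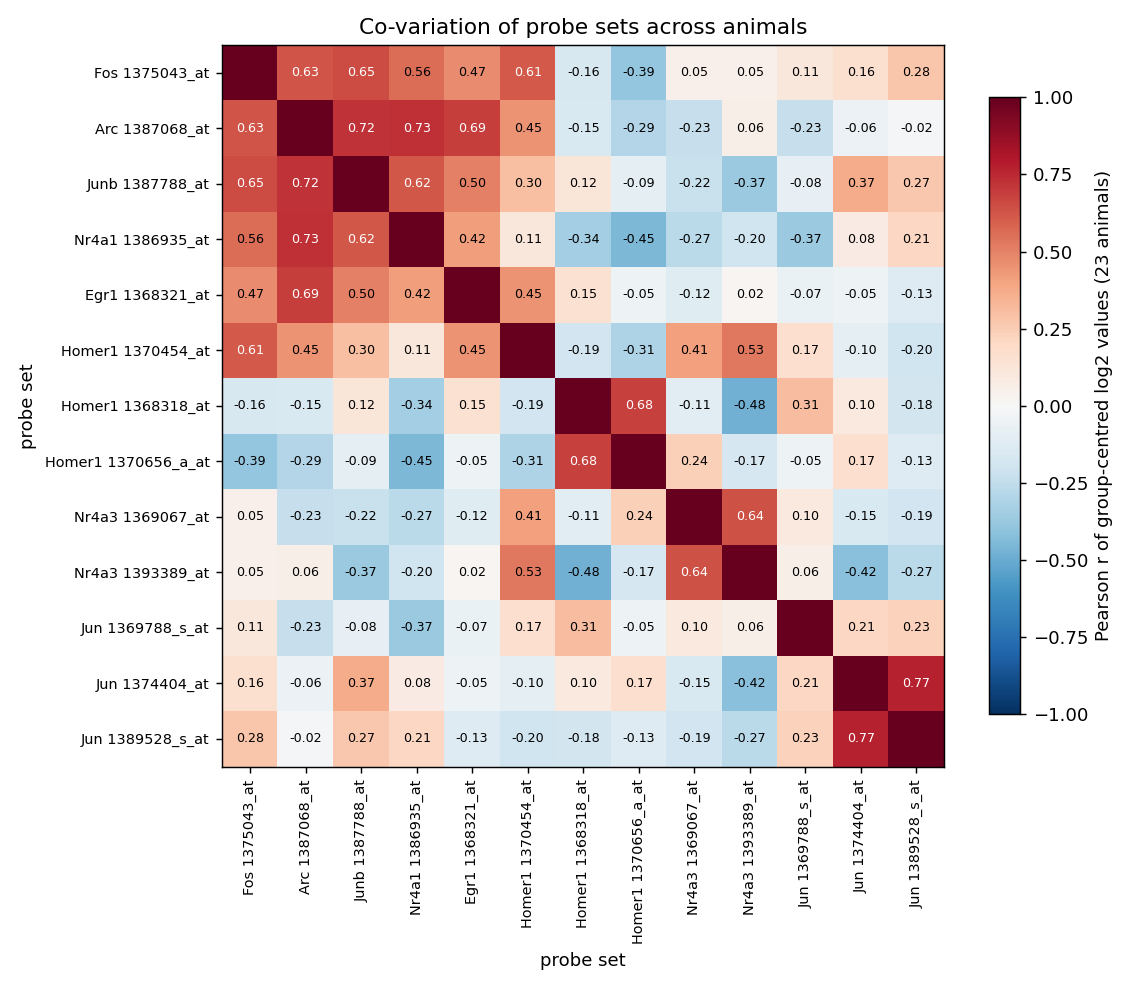
Pearson's r of group-centred log2 values between the 13 tested probe sets over 23 animals (colour scale from -1 to 1, value printed in each cell; both axes list probe sets). Fos, Arc, Junb, Nr4a1 and Egr1 form a block of r from 0.42 to 0.73, and probe sets of Jun, Nr4a3 and the other Homer1 probe sets lie outside it.

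Arc and Nr4a1 had r of 0.62 in young (n = 9), 0.94 in aged unimpaired (n = 6) and 0.74 in aged impaired animals (n = 8). Their rho was lower, at 0.45 in young, 0.55 in aged unimpaired and 0.48 in aged impaired animals. Arc and Egr1 had r of 0.55, 0.25 and 0.99 in the same order. The last, with a rho of 0.93 and an exact permutation p of 0.000223, was the one of 84 within-group pairs that passed adjustment over all 84 (adjusted p = 0.0187), and whether r differs between groups was not tested. Jun, Nr4a3 and Homer1, by their brightest probe sets, were in no pair that passed. The untested Homer1 1370997_at was not among the pairs. Its highest values per group were in young replicate 9 (6.12), aged unimpaired replicate 6 (5.08) and aged impaired replicate 2 (5.40). Homer1 1370454_at, which was not its gene's brightest, had an r of 0.61 with Fos, 0.45 with Arc and Egr1 and 0.53 with Nr4a3 1393389_at. Its r with Junb and with Nr4a1 was lower than each of these. None of these passed adjustment over the 78 pairs of the 13 probe sets, of which 10 did: the 7 above and 1 within each of Jun, Nr4a3 and Homer1.

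**Figure D4:**
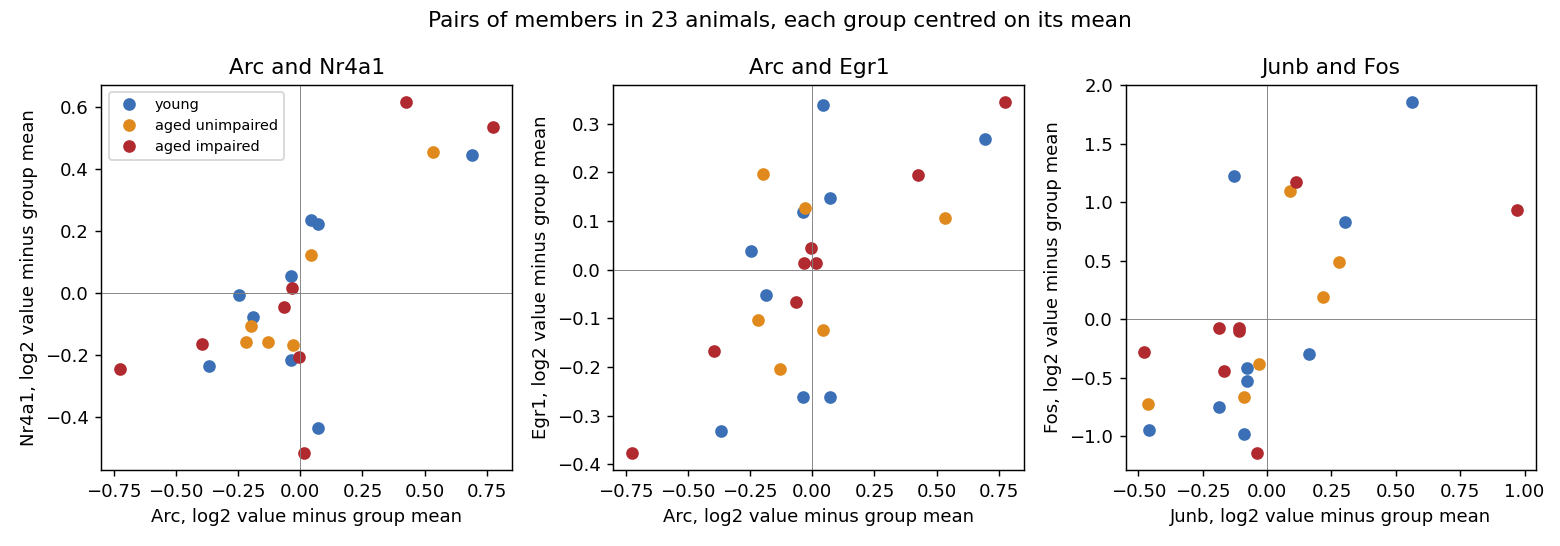
Log2 value minus group mean for Arc and Nr4a1, Arc and Egr1, and Junb and Fos (each point 1 of 23 animals, coloured by group). Arc and Nr4a1 (r = 0.73) share 4 animals at the upper right, of which 1 is young, 1 aged unimpaired and 2 aged impaired.

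The genes outside the 9 whose group-centred values were most like the members' mean over 23 animals were Plekhd1 (r = 0.75), Klf2 (0.75), Dusp1 (0.74), Aff1 (0.71), Cdca4 (0.69), Xpc, Pkd2 and Rnf113a2 (0.65 each) and Inpp5e and Mospd3 (0.64 each). Klf2, a zinc finger factor, and Dusp1, a phosphatase that inactivates MAP kinases, are themselves immediate early genes. Klf2 was dim, with group means from 4.29 to 4.46. Without the 2 animals farthest from the median of the members' mean, r was 0.43 for Rnf113a2 and 0.45 for Inpp5e and Mospd3. For the rest of these genes it then ran from 0.57 (Aff1) to 0.74 (Plekhd1). Gene by gene, the closest was Plxna3 for Fos (0.68), Snx11 for Jun (0.78), Id3 for Junb (0.74), Klf2 for Arc (0.83), Arhgap44 for Egr1 (0.71), Dusp1 for Nr4a1 (0.80), Cdr2 for Nr4a3 (0.82) and Sub1 for Homer1 1368318_at (0.90). These are the highest of 8720 genes and describe these animals. The members' mean was taken over unscaled log2 values, so Fos, with an SD from 0.72 to 1.03 within groups, weighed most in it. Beside the members' mean, dentate gyrus markers had r of 0.49, CA3 markers -0.41, astrocyte markers 0.29, CA1 markers 0.20 and microglial markers 0.16. No marker list passed a permutation test within groups, adjusted over 13 measures (smallest adjusted p = 0.339, for dentate gyrus). Their part in the co-variation of the pairs was not tested.

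The counts on the 4 gene lists that follow stand beside the shares over all tested probe sets, which in aged impaired against young were 3.88% called higher and 5.88% called lower, and in aged unimpaired against young 1.37% called higher; nothing particular to a list is read from them. Of 49 other immediate early genes, 27 were tested. In aged impaired against young, Bhlhe40, a transcriptional repressor that also acts in the circadian clock, rose (1.20 ± 0.27 SE on the log2 scale, limma adjusted p = 0.00949) and Rasd1, a Ras-like protein induced by dexamethasone, fell (-0.35 ± 0.07 SE, limma adjusted p = 0.00565). The median of the 27 was 0.01. No gene of the list was called by limma in aged unimpaired against young (5 at an unadjusted p under 0.05) or between the aged groups (3).

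Of 14 tested effector genes that activity induces, Plat, the tissue plasminogen activator, rose (0.23 ± 0.07 SE, limma adjusted p = 0.0475) and Nptx1, a pentraxin that clusters AMPA receptors, fell (-0.20 ± 0.06 SE, limma adjusted p = 0.0229) in aged impaired against young. Neither aged unimpaired against young nor the aged groups against each other gave a call on this list (2 and 2 at an unadjusted p under 0.05).

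Among 33 tested upstream kinases, receptors and factors, 5 fell and 2 rose in aged impaired against young. Prkaca, the catalytic subunit of protein kinase A, fell by 0.27 on the log2 scale, the SRF coactivator Mrtfa by 0.25, the MAP kinase kinase Map2k1 by 0.14, the NMDA receptor subunit Grin1 by 0.13 and the factor Mef2a by 0.12 (limma adjusted p from 0.0111 to 0.0371). Atf1, a relative of CREB, rose by 0.29 and the kinase Rps6ka5 by 0.65 (limma adjusted p = 0.00896 and 0.0312). The median of the 33 was -0.05. In aged unimpaired against young the coactivator Ep300 rose by 0.18 (limma adjusted p = 0.0446), and no other gene of the list was called.

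Of 18 tested partners and co-repressors, Nab1, a co-repressor of EGR factors, rose by 0.29, Tob1 by 0.24, and Shank2, a postsynaptic scaffold that binds Homer proteins, fell by 0.13 in aged impaired against young (limma adjusted p = 0.0158, 0.0190 and 0.0236). In aged unimpaired against young limma called 0 of the 18 (7 at an unadjusted p under 0.05). Between the aged groups, limma called none of the upstream list (6 at an unadjusted p under 0.05) or of the partners (3).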

How the data were processed

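The deposited values are on a log2 scale and were made by the authors with GCRMA, per the submitters' processing notes; no version or options of it are stated in the sources used here. GCRMA corrects background by probe sequence and brings the arrays to a common distribution, so dim probe sets collapse onto a floor (lowest value 2.19). Each array is 1 animal, numbered as a biological replicate in the labels. Arrays give no read depth, and their number limits the precision.

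The 57 control rows were left out. Gene names came from the platform's annotation, in which 20826 probe sets named 1 gene, 436 several and 9780 none; 20758 matched a gene of GRCr8. Probe sets that reached a log2 value of 4 in 6 or more arrays (14647) were tested with limma 3.58.1 in R 4.3.3, 1 mean per group over 23 arrays (20 residual and 2.35 prior degrees of freedom), two-sided, with Benjamini-Hochberg adjustment over all tested; a call is an adjusted p of at most 0.05. Pairs of members were tested on group-centred values by 100000 permutations within groups, or exactly within 1 group. List genes are given by their brightest tested probe set, and every gene of the 4 activity lists called in a comparison of 2 groups is named. The fit and the permutation test were tested on simulated data.

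The members and lists were chosen with earlier results of these data known. Alternatives were other filters, centring, quantile normalization, a floor, array weights, the compared groups alone, the replicate number as a block, a gap between control rows as covariate, and each array left out. Some control rows were out of register with their names, so only that gap was used.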

Additional observations from a re-analysis of the deposited data

Results flagged for a closer look

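In 5 of 39 group and probe set combinations examined, the highest or lowest animal stood apart from its group by more than Dixon's 95% value; chance gives about 1 in 20. Young replicate 7 was the lowest young animal for Jun 1374404_at (7.69, next 8.21) and for Jun 1389528_s_at (9.92, next 10.35). Aged impaired replicate 2 was the highest of its group for Junb (7.46, next 6.60). Young replicate 9 was the highest young animal for Arc (8.94, next 8.32), and aged unimpaired replicate 6 the highest of its group for Arc (8.98, next 8.49).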

How the results depend on the processing

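Each result was recomputed under up to 10 settings and without each of the 23 arrays. The count of called members in aged impaired against young was 4 with each array centred on its median and ran from 2 to 4 without single arrays (4 without young replicate 5). In aged unimpaired against young it was 1 with no filter, 1 with only the groups compared, and ran from 1 to 3 without single arrays. Between the aged groups it ran from 0 to 2. The other immediate early genes called were 4 in aged impaired against young with each array centred on its median; in aged unimpaired against young they were 2 with array weights, 1 with the control-row gap as covariate, and 0 to 1 without single arrays. The planned centring used the median of all gene probe sets, which lies near the floor (3.40 in young, 3.44 in aged impaired, mean over arrays). Centring on the median of tested probe sets was added after both counts had been seen; it called 2 members in aged impaired and 2 in aged unimpaired against young, and the first version is kept as the planned one. The number of positive pairs was 0 by Spearman, 2 without the 2 farthest animals, and 4 to 9 without single arrays. Replicate numbers did not pair the animals: over 20 same-number pairs the median r of deviations was -0.011, 2 pairs exceeded 0.1, and 3 of 23 arrays correlated best with an array of their own number. With the replicate block, 2 members were called in aged impaired against young, 0 in aged unimpaired against young (Jun 1389528_s_at at an adjusted p of 0.0775 and 1374404_at at 0.123) and 2 in both aged groups against young, and 1 other immediate early gene in aged impaired against young. Directions turned for 4 uncalled members. Junb in aged impaired against young was -0.01 with each array centred on its median, -0.05 with array weights, -0.10 with the control-row gap, and as low as -0.11 without single arrays (-0.11 without aged impaired replicate 2, -0.03 without young replicate 7); against aged unimpaired it was -0.03 with the gap. Homer1 1368318_at against aged unimpaired was also -0.03 with the gap. Fos in aged unimpaired against young was -0.05 with values below 4 set to 4, and Arc between the aged groups ran from -0.18 to 0.04 without single arrays, with 0.04 without aged impaired replicate 6 or aged unimpaired replicate 6. The causes were not tested. Values near the floor are compressed, which limits Fos, Egr3 and the dim Nr4a3 and Homer1 probe sets.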
